A study of Mus musculus with 100 samples.

Results

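Injured knee joints of STR/ort mice were compared between 1-week and 1-day post-injury, to follow the joint from the inflammation of the first day towards the repair of the first week. The comparison took every library that the labels give as an injured STR/ort joint at these times, 5 at 1-week and 5 at 1-day, which made 10 of the 100 libraries of the study. The study profiled whole knee joints of STR/ort mice and of the strains C57BL/6 and MRL/MpJ before and after rupture of the anterior cruciate ligament. Mice were 10 weeks old at injury, so those of 1-week were older at collection than those of 1-day. The right knee was loaded with 10 to 12 N of compression on the tibia, and the left, contralateral knee was not loaded. STR/ort is an inbred strain in which osteoarthritis appears with age without any injury, so its uninjured joints are not those of a strain protected from the disease. Mice that were injured were given the analgesic buprenorphine, which the 1-day, 1-week and contralateral joints therefore share. Further STR/ort libraries were used beside the 10, with 5 of contralateral joints at 1-day, 4 of contralateral joints at 1-week and 4 of uninjured joints at 0-day. The labels give no sex. All of these libraries, and those of the other strains used below, carry the same experimental batch in the labels, and each was made from poly(A) RNA of a joint with bone, marrow, cartilage, synovium, ligament and small remains of soft tissue.

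A ruptured ligament sets off acute inflammation in the joint. Damaged cells, synovial cells and arriving leukocytes release cytokines such as IL-6 and IL-1β, and chemokines that bring blood cells to the site. Chemokines of the CXC group that act on the receptor CXCR2 attract neutrophils, and the CC chemokines encoded by Ccl2 and Ccl7 attract monocytes through the receptor CCR2. In the repair that follows, fibroblasts of the synovium, capsule and ligament spread into the wound and lay down a provisional matrix rich in type III collagen, periostin and tenascins, which is later reshaped by metalloproteinases. Collagen chains need hydroxylases and chaperones for folding and lysyl oxidases for crosslinking, and small leucine-rich proteoglycans guide the width of the fibrils.

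The 10 injured libraries held 7860933 to 13316883 counts each, and levels are given as CPM, counts scaled to each library's total and TMM factor, which compare one gene between libraries and not one gene with another. In a principal component analysis of the 500 most variable genes, the 5 injured libraries of 1-week stood together, as did 4 of the 5 injured libraries of 1-day. The 0-day libraries stood apart from every later group, with component 1 at -26.2 to -19.1. Their fast muscle genes summed to 104632 to 124377 CPM, against 41519 to 71930 CPM in 1-day contralateral joints. Replicate 5 of the 1-day injured joints stood apart, between its group and the contralateral joints. It held the highest levels of the muscle gene Acta1 (3109, 2619, 3724, 2517 and 6267 CPM in replicates 1 to 5) and of the immediate early gene Fos (26.7, 29.9, 39.9, 36.6 and 269.6 CPM), and the contralateral joint of the same number was also high in Fos (15.7, 15.9, 39.2, 71.5 and 279.9 CPM). Genes that define the tissues of a joint were detected in all 10 libraries, with Acan of cartilage at 378 to 492 CPM at 1-day, Ibsp of bone at 1765 to 2506 CPM, Prg4 of the joint surface and synovium at 5521 to 9978 CPM and Mpo of marrow at 964 to 1249 CPM. Because whole joints were sequenced, fewer cells of a type and less RNA per cell cannot be told apart. The labels do not say that replicates came from separate mice, so p-values measure the spread between these libraries.

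**Figure D1:**
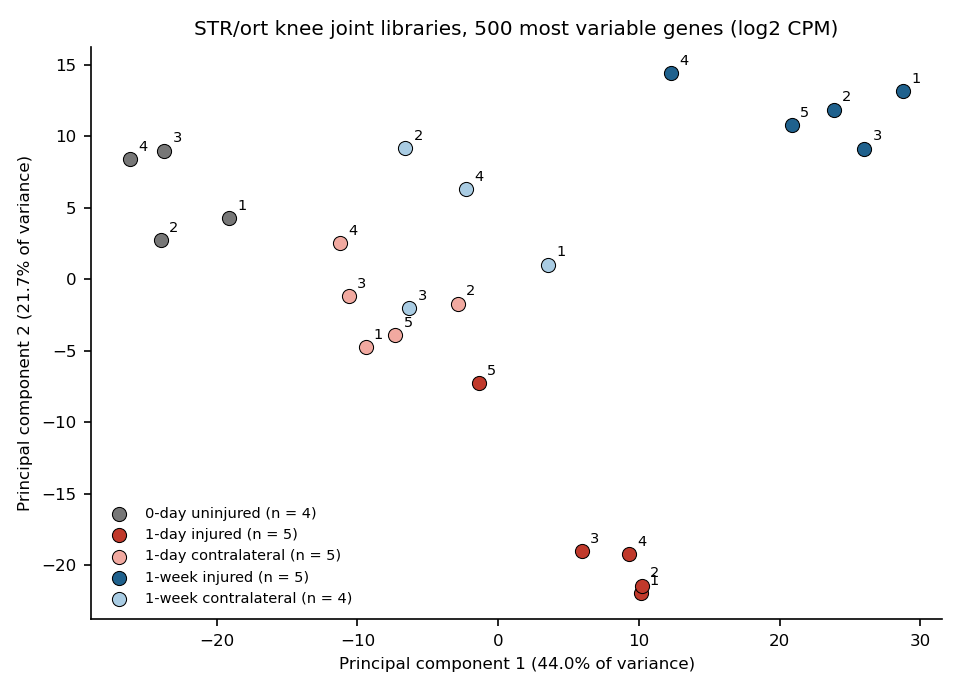
Principal components 1 and 2 (percent of variance on the axes, no unit) of the 23 STR/ort libraries, from log2 CPM of the 500 most variable genes. Each point is a library with its replicate number, and the 1-week injured joints lie on the right, 4 of the 1-day injured joints at the bottom, and replicate 5 of the 1-day injured joints near the contralateral joints.

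Of 17164 genes tested, 1546 rose and 701 fell in injured STR/ort joints between 1-day and 1-week, that is 9.01% and 4.08% of the genes. Counts of list members given below are to be read beside these shares. A gene was called changed when edgeR's quasi-likelihood test gave a Benjamini-Hochberg adjusted p below 0.05 and the fold change was above 1.5. Changes of more than 2-fold numbered 764 up and 227 down, and those of more than 4-fold 149 up and 34 down. In 1912 genes every 1-week library stood above every 1-day library, in 1403 every 1-week library stood below, and in 13849 the groups overlapped. Log2 fold changes are positive where 1-week was higher, and their median over all genes was -0.01. With the libraries scaled by 25 housekeeping genes instead, 1873 genes rose and 473 fell.

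Among the 10 largest rises, counted over called genes with a mean of at least 5 CPM and no overlap between both times, were those of C1qtnf3, Lrrc15, Angptl1 and Aspn. C1qtnf3 (chr15:10952119-10980162 in the mouse build GRCm38.p6) encodes a secreted protein of the C1q/TNF family, and its 1-day libraries held 15.9, 24.6, 18.4, 15.6 and 17.7 CPM. At 1-week they held 2042, 1167, 835, 781 and 766 CPM. The lowest 1-week library was thus above every 1-day library by a wide gap (log2 fold change 5.94 ± 0.44 SE, adjusted p = 5.12e-10). Lrrc15 (chr16:30269302-30283254), a membrane protein found on activated fibroblasts, went from 5.99, 7.71, 8.51, 6.77 and 11.6 CPM to 221, 170.2, 155, 114 and 115 CPM without overlap (log2 fold change 4.27 ± 0.29 SE, adjusted p = 1.78e-10). Angptl1, a secreted angiopoietin-like protein, held 12.8, 17.3, 10.6, 14.1 and 27.5 CPM at 1-day and 371, 318, 372, 313 and 317 CPM at 1-week, and the 5 libraries of 1-week were close to each other (log2 fold change 4.39 ± 0.29 SE, adjusted p = 1.15e-10). Aspn encodes asporin, a leucine-rich matrix protein that binds TGF-β, and held 63.96, 94.3, 80.3, 88.7 and 188 CPM at 1-day, with replicate 5 highest, and 1218, 883, 1003, 962 and 943 CPM at 1-week (log2 fold change 3.30 ± 0.29 SE, adjusted p = 7.93e-09).

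Other genes among the 10 largest rises were Tnn, Fbn2, Spon2, Adamts16, Moxd1 and Brinp3. Tnn encodes tenascin-W, a matrix protein of developing bone and of stroma, and held 77.8, 124, 116, 89.97 and 121 CPM at 1-day and 1795, 1182, 980.1, 703 and 938 CPM at 1-week (log2 fold change 3.42 ± 0.29 SE, adjusted p = 4.71e-09). The gene for fibrillin-2, Fbn2, held 11.02, 7.82, 9.499, 10.1 and 8.26 CPM at 1-day and 176, 141, 154, 99.1 and 123 CPM at 1-week, and had the smallest standard error of the 10 (log2 fold change 3.89 ± 0.14 SE, adjusted p = 2.57e-15). Fibrillin-2 belongs to the microfibrils of growing and healing tissue. Spon2, a secreted protein of the spondin family, had a log2 fold change of 3.22 ± 0.21 SE, the protease gene Adamts16 one of 3.68 ± 0.45 SE, and Moxd1, a gene related to copper monooxygenases, one of 3.13 ± 0.25 SE, each with no overlap between the times. Brinp3 had few reads at 1-day, with 3, 6, 4, 6 and 9 counts against 164, 79, 102, 57 and 32 at 1-week, so that its log2 fold change of 4.29 ± 0.40 SE is imprecise.

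Among the 10 largest falls by the same limits were those of chemokines, described below, and of Rrad, Fbxl22, Cnksr1, Asb5, Hal and Rag1. Rrad, a small GTPase that binds calcium channels and is induced in stressed muscle, held 79.5, 53.9, 79.1, 38.7 and 91.6 CPM at 1-day and 16.5, 16.6, 7.86, 8.29 and 8.81 CPM at 1-week (log2 fold change -2.57 ± 0.24 SE, adjusted p = 2.36e-08). Fbxl22 and Asb5, which encode ubiquitin ligase subunits of striated muscle, fell by 2.11 and 2.04 on the log2 scale. Cnksr1, a scaffold of Ras signalling, fell by 2.10, and Hal, the histidine ammonia-lyase, held 21.8, 23.4, 22.7, 19.5 and 11.9 CPM at 1-day and 4.15, 6.09, 6.21, 4.04 and 4.301 CPM at 1-week (log2 fold change -1.99 ± 0.17 SE, adjusted p = 3.67e-09). The levels of Hal at 1-week lay in the range of the contralateral joints at that time (5.62 to 7.599 CPM) or below it.

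**Figure D2:**
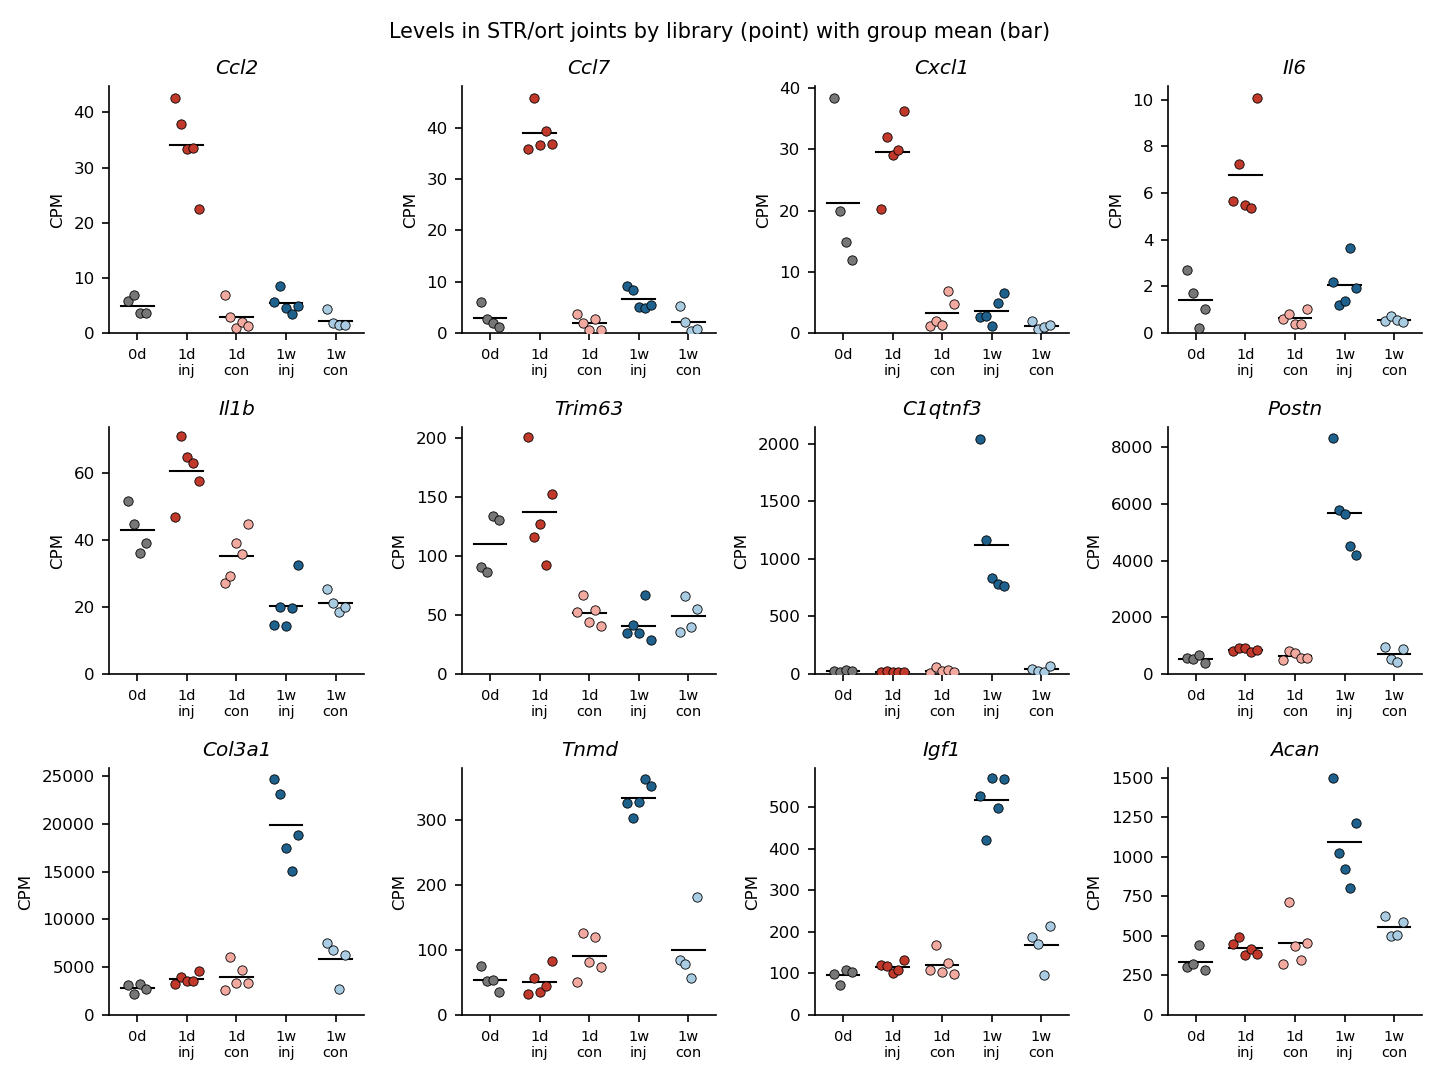
Levels in CPM of 12 genes in each STR/ort library (points) with the group mean (bar), for 0-day, 1-day injured, 1-day contralateral, 1-week injured and 1-week contralateral joints. In injured joints Ccl2, Ccl7, Cxcl1, Il6 and Il1b were lower at 1-week than at 1-day in every library, while C1qtnf3, Postn, Col3a1, Tnmd, Igf1 and Acan were highest in injured joints at 1-week.

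Chemokines that attract neutrophils fell together in part. Of 7 genes tested in the list of CXC chemokines and their receptor, 4 fell (against 4.08% of all genes) and 0 rose, with a median log2 fold change of -1.83 over the list and -0.01 over all genes. Cxcl1, Cxcl2 and Cxcl3 are neighbours on chromosome 5, and the bases before their starts are shown because these members moved together and were the list members in which the motif was found. The 250 bases before each start are from RefSeq (GRCm38.p6, plus strand, 5′ to 3′) at chr5:90890995-90891244, chr5:90903649-90903898 and chr5:90785851-90786100, with matches to an NF-κB motif (GGG and TTCC with 3 bases of any kind between them) on either strand in capitals:
Cxcl1: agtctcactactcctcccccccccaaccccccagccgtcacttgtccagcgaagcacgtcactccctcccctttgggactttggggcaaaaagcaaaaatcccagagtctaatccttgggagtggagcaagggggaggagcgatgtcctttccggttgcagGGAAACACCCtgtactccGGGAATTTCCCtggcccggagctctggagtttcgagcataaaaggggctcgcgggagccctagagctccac
Cxcl2: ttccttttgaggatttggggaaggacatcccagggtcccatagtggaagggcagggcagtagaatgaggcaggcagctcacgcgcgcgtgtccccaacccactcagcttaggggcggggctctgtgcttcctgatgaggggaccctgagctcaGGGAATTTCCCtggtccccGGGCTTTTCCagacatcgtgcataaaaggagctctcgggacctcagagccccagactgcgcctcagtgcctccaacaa
Cxcl3: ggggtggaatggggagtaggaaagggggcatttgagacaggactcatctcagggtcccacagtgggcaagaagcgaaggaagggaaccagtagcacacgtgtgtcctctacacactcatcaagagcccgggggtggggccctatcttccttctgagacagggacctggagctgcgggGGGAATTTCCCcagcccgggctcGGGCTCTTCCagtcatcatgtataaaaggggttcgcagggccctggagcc
Each of the 3 sequences holds 3 matches, some of which overlap on opposite strands. In windows of 300 bases, from 250 before to 50 after a start, the motif was in 3 of the 7 list members with an entry (42.9%) and in 1825 of 32851 promoters of all genes (5.56%). Among the chemokines and receptors of monocytes it was in 1 of 9 with an entry (11.1%), namely Ccl9. Cxcl5, Ccl2 and Ccl7, which fell, had no entry and were not searched. A match describes the letters and not a site in use.

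Cxcl1 (chr5:90891245-90893121), a chemokine made by fibroblasts and macrophages, held 20.3, 31.98, 28.99, 29.9 and 36.3 CPM in the 1-day libraries and 2.54, 2.78, 1.19, 4.98 and 6.55 CPM in the 1-week libraries (log2 fold change -3.01 ± 0.40 SE, adjusted p = 3.26e-06). The groups did not overlap. Uninjured joints at 0-day held 38.4, 19.9, 14.8 and 12.00 CPM, a range that overlaps the 1-day injured joints, and contralateral joints at 1-day held 1.07 to 6.89 CPM. Cxcl2 held 2.29 to 3.795 CPM at 1-day and 0.457 to 1.14 CPM at 1-week and fell without overlap (log2 fold change -1.91 ± 0.35 SE, adjusted p = 1.66e-04). Cxcl3 held 5.81, 9.07, 7.53, 6.62 and 1.65 CPM at 1-day and 1.62, 2.25, 0.548, 1.56 and 0.922 CPM at 1-week. Its replicate 5 at 1-day lay within the range of the 1-week libraries (log2 fold change -2.18 ± 0.38 SE, adjusted p = 1.08e-04). Cxcl5, which is made by activated stromal cells, likewise had replicate 5 of 1-day (37.6, 47.7, 46.3, 39.4 and 15.8 CPM) below the highest 1-week library (10.96, 16.4, 8.31, 8.19 and 8.81 CPM), and fell (log2 fold change -1.83 ± 0.33 SE, adjusted p = 1.25e-04). The receptor gene Cxcr2 had a log2 fold change of -0.50 ± 0.09 SE and stayed under the fold threshold.

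Among chemokines and receptors of monocytes, 5 of 13 genes fell and 0 rose, with a median of -0.50. Ccl2 (chr11:82035577-82037452) held 42.7, 37.9, 33.4, 33.6 and 22.6 CPM at 1-day and 5.65, 8.61, 4.48, 3.42 and 4.81 CPM at 1-week (log2 fold change -2.67 ± 0.33 SE, adjusted p = 1.02e-06). Its neighbour Ccl7 held 35.8, 45.8, 36.6, 39.4 and 36.8 CPM at 1-day and 9.23, 8.34, 5.12, 4.87 and 5.43 CPM at 1-week (log2 fold change -2.56 ± 0.36 SE, adjusted p = 6.63e-06). Neither gene overlapped between the times. The receptor Ccr2, of inflammatory monocytes, fell as well, with 133, 162, 119.8, 116 and 108 CPM at 1-day against 58.8, 48.3, 70.6, 58.2 and 58.8 CPM at 1-week (log2 fold change -1.10 ± 0.14 SE, adjusted p = 1.55e-06). Ccl8 and Ccl12, other ligands of CCR2, had log2 fold changes of 0.82 ± 0.38 SE and -0.22 ± 0.47 SE and did not pass the test (adjusted p = 0.112 and 0.774), though Ccl8 was called higher when fitted over the 10 injured libraries (0.81) or the 30 of 3 strains (0.83).

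Of 12 IL-6 family genes 3 ligands fell and 2 receptors rose. Il6 held 5.64, 7.26, 5.49, 5.36 and 10.1 CPM at 1-day and 2.19, 1.19, 1.37, 3.63 and 1.95 CPM at 1-week (log2 fold change -1.67 ± 0.31 SE, adjusted p = 2.14e-04), and every 1-week library was below every 1-day library. Il11, a family cytokine of fibroblasts, fell with overlap, from 17.4, 22.8, 13.4, 18.5 and 12.6 CPM to 12.8, 7.81, 5.03, 7.36 and 12.1 CPM (log2 fold change -0.90 ± 0.22 SE, adjusted p = 0.00338). Contralateral joints held 0.506 to 1.65 CPM of Il11 at 1-day and 1.296 to 2.94 CPM at 1-week, below every injured library of either time. Osm, a leukocyte cytokine of the family, fell (log2 fold change -0.65 ± 0.18 SE, adjusted p = 0.00734), but lost its call without replicate 5 of 1-day (-0.57). Its receptor gene Osmr rose, with 48.9 to 64.9 CPM at 1-day and 70.4 to 109 CPM at 1-week (log2 fold change 0.66 ± 0.13 SE, adjusted p = 5.17e-04), and lost its call without replicate 1 of 1-week. Lif, with a log2 fold change of -0.36 ± 0.24 SE, did not pass the test (adjusted p = 0.272).

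Of 15 genes of the IL-1 and TNF system, 2 rose and 3 fell, with a median of -0.10. Il1b (chr2:129364569-129371164), the inducible IL-1 ligand, held 46.8, 70.99, 64.9, 63.1 and 57.6 CPM at 1-day and 14.5, 20.1, 14.4, 19.8 and 32.7 CPM at 1-week and fell without overlap (log2 fold change -1.56 ± 0.18 SE, adjusted p = 3.97e-07). The 1-week injured joints lay around the level of the contralateral joints at that time (25.4, 21.2, 18.4 and 19.9 CPM). Tnf, at 3.05 to 4.88 CPM at 1-day and 1.74 to 2.56 CPM at 1-week, fell as well (log2 fold change -0.81 ± 0.23 SE, adjusted p = 0.00861), a call lost with RUVg (-0.59, adjusted p = 0.0555). Il1a had a log2 fold change of -0.43 ± 0.20 SE and the receptor antagonist Il1rn one of 0.04 ± 0.10 SE, and neither passed the test (adjusted p = 0.114 and 0.832). The receptor Il1r1, at 0.54 ± 0.11 SE, passed the p threshold and not the fold threshold, except with housekeeping scaling (0.62) or without replicate 4 of 1-week (0.60). Il1rl1, the receptor of the alarmin IL-33, rose, with 36.1 to 47.9 CPM at 1-day and 55.9 to 119 CPM at 1-week (log2 fold change 1.08 ± 0.16 SE, adjusted p = 1.20e-05). Tnfaip6, whose product TSG-6 binds hyaluronan and restrains inflammation, rose from 34.2, 35.3, 23.4, 34.1 and 38.7 CPM to 103, 85.7, 46.05, 86.98 and 100.2 CPM (log2 fold change 1.36 ± 0.25 SE, adjusted p = 1.43e-04), and the contralateral joints held 3.06 to 7.12 CPM at 1-day and 4.54 to 13.98 CPM at 1-week.

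Ptgs2, which encodes the inducible cyclooxygenase COX-2, was the called member among 7 genes of prostaglandin synthesis and its receptors (9.01% of all genes rose). It held 10.8, 11.5, 6.54, 9.898 and 17.5 CPM at 1-day and 29.3, 14.3, 13.9, 20.1 and 25.8 CPM at 1-week, with overlap through replicate 5 of 1-day (log2 fold change 0.90 ± 0.24 SE, adjusted p = 0.00511). Of 18 immediate early transcription factors 2 rose, a share near the 9.01% of all genes, and 0 fell. Nr4a2, a nuclear receptor induced by prostaglandins and stress, held 12.7, 18.7, 11.3, 15.03 and 38.2 CPM at 1-day, with replicate 5 highest, and 67.9, 49.5, 44.3, 43.3 and 53.4 CPM at 1-week (log2 fold change 1.45 ± 0.33 SE, adjusted p = 0.00136), and Klf4 rose with overlap (log2 fold change 0.63 ± 0.17 SE, adjusted p = 0.00681) and lost its call without replicate 4 or replicate 5 of 1-week. Fos, Fosb and Egr1 had log2 fold changes of -1.31 ± 0.71 SE, -1.85 ± 0.91 SE and -0.47 ± 0.49 SE and did not pass the test. Each of these was highest at 1-day in replicate 5, and without that library their log2 fold changes were -0.04, -0.26 and 0.38. Fitted over the 30 injured libraries of 3 strains, Fos and Fosb were called lower (-1.30 and -1.84). Uninjured joints at 0-day held 37.9 to 71.3 CPM of Nr4a2, which overlaps the 1-week injured joints. They held 389 to 689 CPM of Egr1, above every injured library of either time. The immediate early list summed to 2176 to 3266 CPM at 0-day. It summed to 759 to 1505 CPM in injured and 765 to 1561 CPM in contralateral joints at 1-day, so 0-day differed from the contralateral joints too.

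Of 11 heat shock genes 3 rose and 1 fell, with a median of 0.22, and with single libraries left out 1 to 3 rose. In contralateral joints 1 rose and 0 fell, with a median of 0.45. The change over time was higher in injured than in contralateral joints for 0 of the 11 and lower for 1. Hspb1, the small heat shock protein of muscle and other stressed cells, held 167, 72.7, 92.7, 57.5 and 46.5 CPM at 1-day and 44.3, 33.8, 18.7, 29.9 and 24.3 CPM at 1-week and fell without overlap (log2 fold change -1.53 ± 0.29 SE, adjusted p = 2.60e-04). Hspa1a, the inducible HSP70, held 0.3402 to 1.196 CPM at 1-day and 0.731 to 3.69 CPM at 1-week, with overlap, and rose (log2 fold change 1.34 ± 0.43 SE, adjusted p = 0.0208), and lost its call without replicate 5 of 1-week. Hspa1a and its copy Hspa1b share most of their sequence, so reads may be split between them, and uninjured joints at 0-day held 10.1 to 15.04 CPM of Hspa1a.

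The list of acute-phase and glucocorticoid-induced genes moved in both directions, with 3 of 14 higher and 2 lower. Hp, haptoglobin, held 611, 605, 759, 695 and 514 CPM at 1-day and 391, 379, 315, 357 and 344 CPM at 1-week and fell without overlap (log2 fold change -0.82 ± 0.10 SE, adjusted p = 1.75e-06), and Mt2, a metallothionein, fell with overlap (log2 fold change -0.86 ± 0.25 SE, adjusted p = 0.0118). Saa3, a serum amyloid A of macrophages, held 7.22 to 13.5 CPM at 1-day and 3.46 to 5.16 CPM at 1-week with no overlap, but did not pass the test (log2 fold change -1.34 ± 0.54 SE, adjusted p = 0.0636) except when fitted over the 10 injured libraries (-1.35) or the 30 of 3 strains (-1.33). Fkbp5 and Zbtb16, both classical targets of the glucocorticoid receptor, and Angptl4, a lipoprotein lipase inhibitor, rose. Fkbp5 held 67.4, 55.2, 57.5, 55.5 and 62.3 CPM at 1-day and 104, 147, 144, 121 and 84.8 CPM at 1-week (log2 fold change 1.02 ± 0.11 SE, adjusted p = 1.55e-07), and Zbtb16 6.97 to 14.3 CPM and 17.00 to 33.4 CPM (log2 fold change 1.497 ± 0.20 SE, adjusted p = 4.62e-06). Angptl4 rose, with 91.1 to 101 CPM at 1-day and 129 to 270.3 CPM at 1-week (log2 fold change 1.07 ± 0.19 SE, adjusted p = 1.58e-04).

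Collagen genes rose over most of their families. Of 9 fibrillar collagen genes 7 rose (against 9.01% of all genes) and 0 fell, with a median log2 fold change of 0.95. Col3a1 (chr1:45311538-45349706), the type III collagen of granulation tissue, held 3252, 3986, 3552, 3587 and 4638 CPM at 1-day and 24713, 23152, 17497, 15084 and 18803 CPM at 1-week (log2 fold change 2.40 ± 0.24 SE, adjusted p = 4.16e-08). No library overlapped. Col5a1, which starts fibrils, held 245, 317, 286, 276 and 304 CPM at 1-day and 1954, 1616, 976, 872 and 1177 CPM at 1-week (log2 fold change 2.22 ± 0.19 SE, adjusted p = 7.26e-09). Col1a1, which encodes the main collagen chain of bone, tendon and scar, went from 7783, 9875, 9130.2, 9304 and 6766 CPM to 22495, 19473, 12014, 12283 and 15704 CPM (log2 fold change 0.95 ± 0.17 SE, adjusted p = 1.30e-04), and Col1a2 rose by 0.84 ± 0.17 SE on the log2 scale. The 1-week levels of Col1a1 ran from 12014 CPM in replicate 3 to 22495 CPM in replicate 1. The 2 fibrillar members that were not called were those of cartilage, with Col2a1 at 0.22 ± 0.23 SE (adjusted p = 0.516) and Col11a2 at -0.30 ± 0.18 SE (adjusted p = 0.223).

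Of 10 FACIT and beaded-filament collagens, which connect fibrils or surround cells, 8 rose and 0 fell, with a median of 1.80. Col6a1, of the beaded filament, held 403, 478, 409, 446 and 543 CPM at 1-day and 2944, 2687, 1840.4, 1545 and 2128 CPM at 1-week (log2 fold change 2.30 ± 0.19 SE, adjusted p = 3.44e-09), and Col6a2 rose alike (2.27 ± 0.19 SE). Col8a2, a short-chain collagen, rose from 5.73, 12.02, 12.3, 12.5 and 13.03 CPM to 102, 78.7, 41.5, 37.7 and 56.7 CPM (log2 fold change 2.52 ± 0.23 SE, adjusted p = 1.82e-08), with replicate 1 lowest at 1-day and highest at 1-week. Col9a1, of cartilage fibrils, had a log2 fold change of -0.22 ± 0.24 SE and did not pass the test (adjusted p = 0.533). Among 17 genes for collagen folding, processing and crosslinking, 15 rose and 0 fell, with a median of 1.05. P4ha3, a prolyl hydroxylase subunit, held 29.2, 38.9, 26.7, 34.6 and 49.2 CPM at 1-day and 201, 179.98, 164, 126 and 149.6 CPM at 1-week (log2 fold change 2.22 ± 0.25 SE, adjusted p = 2.60e-07), and P4ha1 rose by 1.01 ± 0.14 SE. The members not called were P4hb, with 0.45 ± 0.10 SE past the p threshold and under the fold threshold, and Loxl4, a lysyl oxidase with -0.11 ± 0.15 SE (adjusted p = 0.63).

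Of 16 genes of activated fibroblasts and matricellular proteins, 12 rose and 0 fell, with a median of 1.00. Postn (chr3:54359267-54391041), periostin of healing ligament and periosteum, held 813, 913, 906, 794 and 865 CPM at 1-day and 8326, 5807, 5664, 4509 and 4192 CPM at 1-week (log2 fold change 2.75 ± 0.21 SE, adjusted p = 1.35e-09). The contralateral joints at 1-week held 436 to 947 CPM. Cthrc1, a secreted protein of injured tissue, went from 47.4, 56.4, 56.9, 61.99 and 57.8 CPM to 574, 467, 387, 307 and 322 CPM (log2 fold change 2.89 ± 0.21 SE, adjusted p = 3.17e-10), and Thbs2, thrombospondin-2, from 161, 211, 175, 162 and 204 CPM to 2164, 1561, 1381, 1027 and 1063 CPM (log2 fold change 2.99 ± 0.21 SE, adjusted p = 1.89e-10). Fn1, fibronectin, rose by 1.04 ± 0.22 SE and Tnc, tenascin-C, by 0.80 ± 0.13 SE. Timp1, often induced early in wounds, had a log2 fold change of -0.32 ± 0.23 SE and did not pass the test (adjusted p = 0.327), with 197 to 304 CPM at 1-day and 119.6 to 291 CPM at 1-week against 53.9 to 88.5 CPM in contralateral joints at 1-week.

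**Figure D3:**
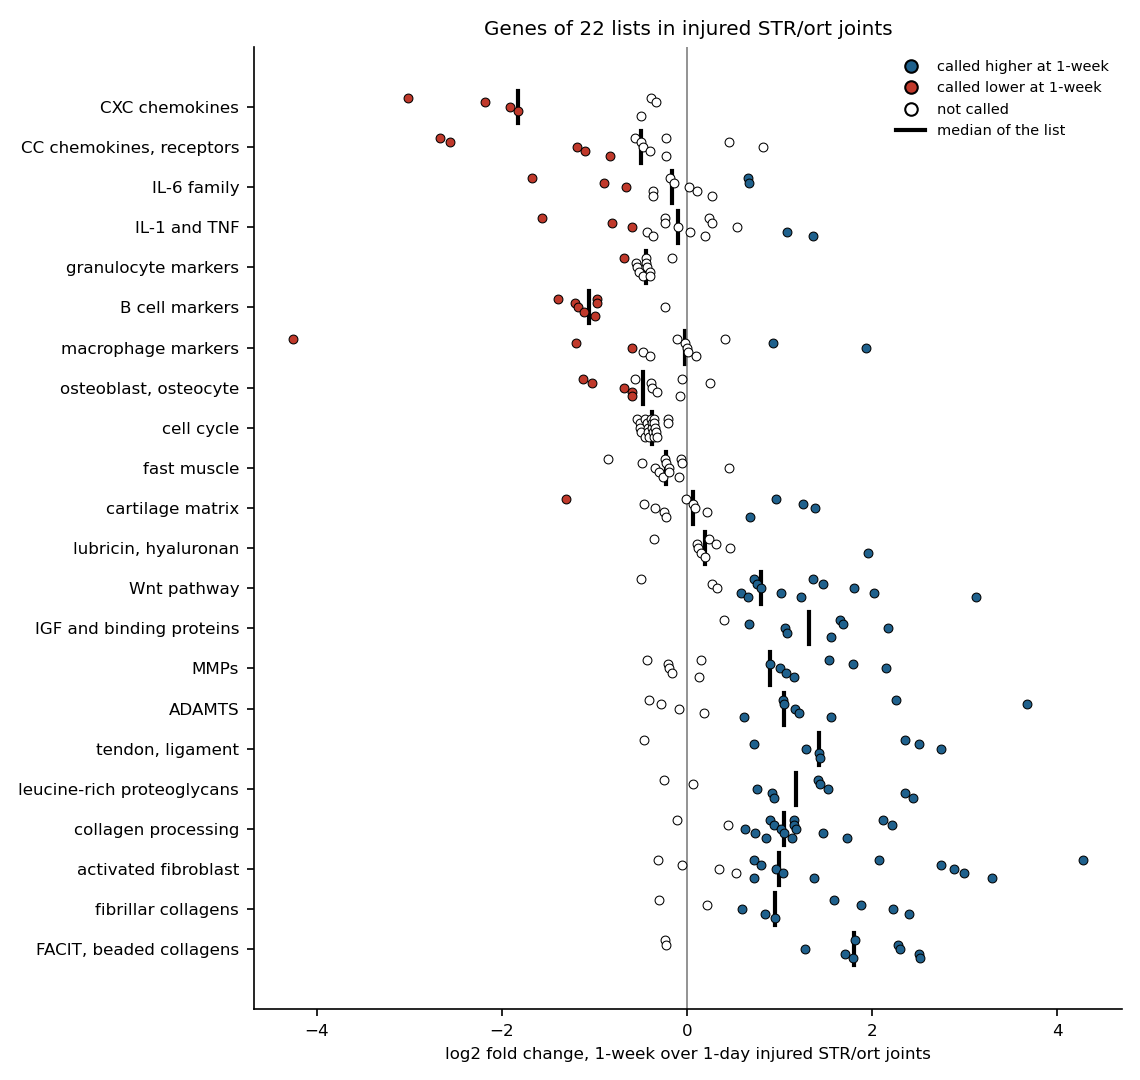
Log2 fold change from 1-day to 1-week in injured STR/ort joints (x axis) for each tested member of 22 lists, with called genes filled and the list median as a bar. Members of the collagen, fibroblast, proteoglycan and tendon lists lie mostly to the right, CXC chemokines and B cell markers to the left, and the cell cycle list has no called member.

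Proteases of the matrix rose in part. Of 13 matrix metalloproteinase genes, 7 rose and 0 fell, with a median of 0.89. Mmp2, a gelatinase of fibroblasts, held 257, 298, 272, 248 and 324 CPM at 1-day and 1423, 1321, 1226, 1002 and 1179 CPM at 1-week (log2 fold change 2.15 ± 0.15 SE, adjusted p = 1.72e-10). Mmp14, the membrane protease that activates MMP-2, rose from 275, 275, 247, 245 and 224 CPM to 1043, 819, 965, 713 and 794 CPM (log2 fold change 1.79 ± 0.12 SE, adjusted p = 2.38e-10). The collagenase Mmp13 had a log2 fold change of 0.15 ± 0.19 SE, the stromelysin Mmp3 one of 0.13 ± 0.29 SE, and Mmp8 and Mmp9 of granulocytes and osteoclasts ones of -0.16 ± 0.10 SE and -0.19 ± 0.11 SE, and these 4 did not pass the test (adjusted p from 0.231 to 0.778). Of 12 ADAMTS genes 8 rose and 0 fell, with a median of 1.05. Adamts4, an aggrecanase, held 15.1, 13.6, 13.4, 10.8 and 14.04 CPM at 1-day and 46.3, 37.1, 23.6, 17.2 and 24.99 CPM at 1-week and rose without overlap (log2 fold change 1.17 ± 0.19 SE, adjusted p = 6.00e-05). The other main aggrecanase, Adamts5, had a log2 fold change of -0.41 ± 0.12 SE, past the p threshold and under the fold threshold, and all of its 1-week libraries lay below its 1-day libraries. Adamts15 rose, with 4.99 to 6.85 CPM at 1-day and 22.3 to 33.3 CPM at 1-week (log2 fold change 2.25 ± 0.15 SE, adjusted p = 1.15e-10).

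Inhibitors of metalloproteinases did not move together. Timp2 held 291, 353, 324, 324 and 420.05 CPM at 1-day and 1221, 1110.5, 1035, 975 and 1140.2 CPM at 1-week (log2 fold change 1.69 ± 0.12 SE, adjusted p = 2.54e-10), whereas Timp3 had a log2 fold change of 0.04 ± 0.09 SE (adjusted p = 0.783). A2m, the broad protease inhibitor α2-macroglobulin, fell, with 2.68 to 5.21 CPM at 1-day and 1.19 to 2.65 CPM at 1-week (log2 fold change -0.96 ± 0.27 SE, adjusted p = 0.0096). Of 6 inhibitor genes 2 rose and 1 fell.

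Small leucine-rich proteoglycans and tendon genes rose together with the collagens. Of 10 proteoglycan genes 8 rose and 0 fell, with a median of 1.18. Ogn, osteoglycin, held 49.1, 63.7, 59.04, 57.5 and 92.01 CPM at 1-day and 414, 323, 336, 338 and 315 CPM at 1-week (log2 fold change 2.44 ± 0.16 SE, adjusted p = 1.29e-10). Bgn, biglycan, rose by 1.52 ± 0.16 SE, Fmod, fibromodulin, by 1.43 ± 0.17 SE, Lum, lumican, by 1.42 ± 0.17 SE and Dcn, decorin, by 0.76 ± 0.15 SE, each with no overlap between the times. Epyc, epiphycan of growth cartilage, had a log2 fold change of -0.25 ± 0.21 SE and did not pass the test (adjusted p = 0.428). Of 8 tendon and ligament genes 7 rose and 0 fell, with a median of 1.43, and Egr1 was the member that was not called. Tnmd (chrX:133851008-133865577), tenomodulin of mature tendon, held 32.5, 57.2, 35.4, 44.7 and 83.7 CPM at 1-day and 326, 302, 327, 363 and 352 CPM at 1-week (log2 fold change 2.74 ± 0.29 SE, adjusted p = 1.47e-07). Scx, the transcription factor scleraxis of tendon progenitors, went from 8.33, 9.299, 8.65, 7.29 and 8.53 CPM to 30.3, 24.4, 17.5, 18.1 and 21.5 CPM (log2 fold change 1.42 ± 0.15 SE, adjusted p = 1.36e-07), and Mkx, a homeobox factor of tendon, rose by 1.28 ± 0.17 SE. Kera, keratocan, is a member of both lists and rose, with 24.99 to 48.8 CPM at 1-day and 161 to 202 CPM at 1-week (log2 fold change 2.36 ± 0.23 SE, adjusted p = 4.16e-08).

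Growth factor and Wnt genes rose as well. Of 8 genes for IGF ligands and binding proteins 7 rose and 0 fell, with a median of 1.32. Igf1, a growth factor of muscle, bone and macrophages, held 121, 118, 100.5, 107 and 133 CPM at 1-day and 528, 420.2, 569.8, 499 and 567 CPM at 1-week (log2 fold change 2.17 ± 0.17 SE, adjusted p = 1.35e-09). Igf2 rose, with 9.46 to 15.7 CPM at 1-day and 36.5 to 49.6 CPM at 1-week (log2 fold change 1.68 ± 0.14 SE, adjusted p = 2.16e-09), and Igfbp3, which binds both ligands, by 1.66 ± 0.14 SE. Of 15 Wnt pathway genes 12 rose and 0 fell, with a median of 0.80. The secreted antagonists were among the largest, with Dkk3 at 23.95, 35.6, 30.8, 30.8 and 46.97 CPM at 1-day and 383, 289, 266, 232 and 280.2 CPM at 1-week (log2 fold change 3.12 ± 0.20 SE, adjusted p = 9.77e-11) and Sfrp2 at 24.2, 23.02, 28.6, 26.6 and 39.2 CPM and 127, 98.4, 107, 109 and 127 CPM (log2 fold change 2.02 ± 0.25 SE, adjusted p = 1.14e-06). Dkk3 bears the name of the Dickkopf family but is not a classical inhibitor of Wnt receptors. Of the ligands, Wnt16 rose, with 1.04 to 2.39 CPM at 1-day and 2.88 to 4.57 CPM at 1-week (log2 fold change 1.36 ± 0.32 SE, adjusted p = 0.00231) and Wnt5a rose (log2 fold change 0.72 ± 0.18 SE, adjusted p = 0.00342), while Wnt4, at -0.50 ± 0.14 SE, stayed under the fold threshold. The call of Wnt5a was lost without replicate 1 of 1-week, the highest of the 5 (16.8, 8.74, 6.94, 8.605 and 10.1 CPM in replicates 1 to 5). The receptor Fzd2 rose, with 3.52 to 5.504 CPM at 1-day and 11.7 to 18.1 CPM at 1-week (log2 fold change 1.80 ± 0.17 SE, adjusted p = 2.10e-08).

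Of 16 TGF-β and BMP ligands and antagonists 3 rose and 1 fell, with a median of 0.00. Tgfb3 held 40.2, 51.6, 47.6, 45.2 and 58.7 CPM at 1-day and 163, 134, 100.05, 102 and 118 CPM at 1-week (log2 fold change 1.36 ± 0.13 SE, adjusted p = 4.16e-08), and Tgfb2 rose alike (1.18 ± 0.11 SE). Tgfb1, the ligand stored in platelets and macrophages, had a log2 fold change of -0.11 ± 0.09 SE (adjusted p = 0.37). Gdf5, a BMP ligand of joint formation, held 4, 0, 6, 6 and 4 counts in the 1-day libraries and 93, 26, 38, 28 and 35 counts in the 1-week libraries, with replicate 1 highest at 1-week (log2 fold change 3.80 ± 0.50 SE, adjusted p = 3.21e-06). Its change is imprecise because of the low counts at 1-day. Nog, the BMP antagonist noggin, fell (log2 fold change -0.87 ± 0.26 SE, adjusted p = 0.0151), and this call was lost without replicate 5 of 1-day.

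Cartilage genes did not move as a group. Of 13 cartilage genes 4 rose and 1 fell, with a median of 0.07. Acan (chr7:79053226-79115099), the aggregating proteoglycan of cartilage and of fibrocartilage, held 452, 492, 378, 416 and 383 CPM at 1-day and 1501, 1026, 922, 804 and 1215 CPM at 1-week (log2 fold change 1.38 ± 0.18 SE, adjusted p = 3.21e-06). Sox9, the transcription factor of chondrocytes and of tendon progenitors, rose from 31.1, 31.9, 23.4, 31.7 and 34.2 CPM to 88.02, 61.2, 44.5, 69.8 and 94.7 CPM (log2 fold change 1.25 ± 0.18 SE, adjusted p = 1.35e-05). Col2a1 held 2251, 3379.9, 2389.7, 2666 and 1644 CPM at 1-day and 3319.9, 2888, 1541, 2649 and 3814 CPM at 1-week, and the groups overlapped. Col10a1, of hypertrophic cartilage, had a log2 fold change of -0.35 ± 0.21 SE (adjusted p = 0.244), and Matn1, a matrilin of cartilage, fell with overlap (log2 fold change -1.31 ± 0.44 SE, adjusted p = 0.0255), a call lost without replicate 2 or 3 of 1-day or replicate 3 of 1-week. Of 9 genes of lubricin, hyaluronan and the synovial lining, Htra1 alone was called, a share near the 9.01% of all genes called higher. Htra1, a serine protease that cleaves matrix proteins, held 72.98, 89.6, 81.2, 80.4 and 128 CPM at 1-day and 382, 385, 342, 277 and 349 CPM at 1-week (log2 fold change 1.95 ± 0.19 SE, adjusted p = 3.61e-08). Prg4, lubricin, had a log2 fold change of 0.11 ± 0.24 SE (adjusted p = 0.774), and the hyaluronan synthases Has1 and Has2 ones of 0.24 ± 0.34 SE and -0.36 ± 0.13 SE.

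Osteoblast genes were lower in part at 1-week. Of 12 osteoblast and osteocyte genes 0 rose and 5 fell, with a median of -0.48. Bglap, osteocalcin of mature osteoblasts, held 398, 408, 509.6, 544 and 383 CPM at 1-day and 286, 243, 113, 225 and 224 CPM at 1-week (log2 fold change -1.03 ± 0.20 SE, adjusted p = 2.89e-04), and Bglap2 fell by 1.12 on the log2 scale. These genes are near-identical neighbours, so their counts are uncertain as single genes. Sp7, osterix, fell just past the fold threshold (log2 fold change -0.59 ± 0.19 SE, adjusted p = 0.0181) and lost its call under 9 of 20 alternatives, 5 of which left out a single library (replicates 2, 3 and 4 of 1-day and 3 and 4 of 1-week). Runx2 and Alpl, at -0.39 ± 0.10 SE and -0.33 ± 0.12 SE, passed the p threshold and not the fold threshold, and Ibsp had a log2 fold change of -0.07 ± 0.15 SE (adjusted p = 0.779). Of 11 osteoclast genes 1 rose, a share near the 9.01% of all genes. This was Nfatc1, the factor that drives osteoclast formation, which rose, with 83.7 to 91.7 CPM at 1-day and 116 to 146 CPM at 1-week (log2 fold change 0.59 ± 0.07 SE, adjusted p = 3.41e-07) and lost its call without replicate 5 of 1-day and without replicate 1 or 2 of 1-week. The osteoclast enzymes Acp5 and Ctsk had log2 fold changes of -0.21 ± 0.15 SE and 0.35 ± 0.12 SE and were not called.

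Of 13 macrophage markers tested, 2 rose and 3 fell, with a median of -0.02 and a summed level of 2925 to 3570.01 CPM at 1-day and 2698 to 3231 CPM at 1-week. Csf1r, the receptor of all macrophages, had a log2 fold change of -0.02 ± 0.08 SE, Adgre1 one of 0.01 ± 0.12 SE, and Cd68 one of -0.39 ± 0.10 SE, which stayed under the fold threshold. Gpnmb, a glycoprotein of lipid-loaded macrophages and osteoclasts, rose from 7.12, 10.2, 10.4, 9.97 and 15.96 CPM to 52.3, 33.8, 34.2, 40.2 and 41.7 CPM (log2 fold change 1.93 ± 0.17 SE, adjusted p = 1.15e-08). Contralateral joints at 1-day held 23.3 to 33.3 CPM of Gpnmb, above every injured library of that day. Ms4a7, of tissue macrophages, rose, with 12.7 to 22.1 CPM at 1-day and 31.98 to 37.6 CPM at 1-week (log2 fold change 0.93 ± 0.17 SE, adjusted p = 1.50e-04). Among the members that fell were Fcgr1, the high-affinity IgG receptor of monocytes and macrophages, with 18.2, 43.9, 14.2, 22.5 and 17.6 CPM at 1-day and 13.04, 8.34, 8.95, 10.2 and 9.42 CPM at 1-week (log2 fold change -1.19 ± 0.28 SE, adjusted p = 0.00214), and Itgam, the integrin chain CD11b of myeloid cells, with 377 to 467 CPM at 1-day and 220.5 to 316 CPM at 1-week (log2 fold change -0.59 ± 0.10 SE, adjusted p = 6.80e-05). The call of Itgam was lost under 8 of 20 alternatives, 5 of which left out a single library (replicate 1, 3 or 4 of 1-day or replicate 1 or 2 of 1-week), with values of -0.58 to -0.48. Replicate 2 of 1-day held the highest Fcgr1, which without it fell by 0.84 on the log2 scale.

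Of 11 neutrophil and marrow granulocyte markers 1 fell (against 4.08% of all genes) and 0 rose. In 7 of the 11 every 1-week library stood below every 1-day library (against 8.17% of all genes). At 1-week 6 of the 11 were lower in injured than in contralateral joints (against 2.77% of all genes). The summed level was 13772 to 16670 CPM at 1-day and 8652 to 12662 CPM at 1-week. The called member was Csf3r, the G-CSF receptor, with 217, 202, 209, 193 and 171 CPM at 1-day and 104, 136, 113, 122 and 139.8 CPM at 1-week (log2 fold change -0.68 ± 0.08 SE, adjusted p = 9.80e-07). S100a8, S100a9 and Mpo had log2 fold changes of -0.44 ± 0.18 SE, -0.51 ± 0.12 SE and -0.54 ± 0.10 SE and stayed under the fold threshold. Without replicate 5 of 1-day 3 of the 11 fell, and S100a8 missed the p threshold of the edgeR test as well (-0.47, adjusted p = 0.0583). B cell markers were lower, with 7 of 8 falling, a median of -1.05 and a summed level of 248 to 390.1 CPM at 1-day and 112 to 209.9 CPM at 1-week. Cd79a, part of the B cell receptor, fell with overlap (log2 fold change -0.97 ± 0.25 SE, adjusted p = 0.00453), and Vpreb3, of immature B cells, fell without it (log2 fold change -1.39 ± 0.24 SE, adjusted p = 8.84e-05). Rag1, the recombinase of developing lymphocytes, held 57.3, 65.2, 73.3, 62.1 and 39.8 CPM at 1-day and 11.1, 12.6, 8.13, 27.3 and 23.2 CPM at 1-week (log2 fold change -1.84 ± 0.30 SE, adjusted p = 5.39e-05). Of 8 T cell markers 2 fell, from low levels, with Cd3e at 1.06 to 1.701 CPM at 1-day and 0.512 to 0.795 CPM at 1-week (log2 fold change -0.88 ± 0.23 SE, adjusted p = 0.014), a call lost without replicate 5 of 1-week.

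Of 22 cell cycle genes 0 rose and 0 fell by edgeR, 19 were lower at an unadjusted p under 0.05 and DESeq2 called 0. The median was -0.38, and the summed level ran from 3161 to 4290.5 CPM at 1-day and from 2108 to 4011 CPM at 1-week. Mki67 held 1256, 989, 1101, 1177 and 886 CPM at 1-day and 493, 748, 1197, 809 and 765 CPM at 1-week, with replicate 3 of 1-week as high as the 1-day libraries (log2 fold change -0.42 ± 0.18 SE, adjusted p = 0.0866). Mcm5, a helicase subunit of DNA replication, passed the p threshold and not the fold threshold (log2 fold change -0.53 ± 0.11 SE, adjusted p = 4.70e-04), and it was called without replicate 5 of 1-day or replicate 3 of 1-week (-0.60 in both). Without replicate 3 of 1-week 7 of the 22 fell. The CCAAT box, searched on both strands in the same 300-base windows, was in 15 of the 17 list members with an entry (88.2%) and in 12289 of all promoters (37.4%). Of 12 endothelial genes 1 rose, a share near the 9.01% of all genes, namely Apln, a peptide of sprouting vessels, whose call was lost without replicate 3, 4 or 5 of 1-day and without replicate 1 or 5 of 1-week (log2 fold change 0.61 ± 0.21 SE, adjusted p = 0.0277), and Pecam1 and Cdh5 had log2 fold changes of 0.44 ± 0.07 SE and 0.39 ± 0.09 SE under the fold threshold. Of 9 fat cell genes 0 were called by edgeR, with 1 at an unadjusted p under 0.05 and 0 by DESeq2, and Adipoq had a log2 fold change of 0.21 ± 0.14 SE.

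Of 5 muscle atrophy genes 2 fell, and of 14 genes of muscle regeneration and denervation 6 rose and 2 fell. Trim63 and Fbxo32 encode the ubiquitin ligases MuRF1 and atrogin-1 of wasting muscle. Trim63 held 201, 116, 127, 92.2 and 153 CPM at 1-day and 34.5, 41.2, 34.5, 66.9 and 28.6 CPM at 1-week (log2 fold change -1.73 ± 0.23 SE, adjusted p = 2.54e-06), and Fbxo32 held 268, 180.2, 176, 169 and 354 CPM and 70.9, 104, 92.9, 106 and 71.8 CPM (log2 fold change -1.35 ± 0.23 SE, adjusted p = 8.26e-05). Neither gene overlapped. Myh3, the embryonic myosin of regenerating fibres, rose from 2.69, 2.61, 2.25, 3.35 and 6.697 CPM to 20.5, 26.1, 13.7, 25.3 and 9.11 CPM (log2 fold change 2.44 ± 0.30 SE, adjusted p = 1.32e-06). Ankrd1, a stress gene of muscle, fell from 292, 137, 175, 115 and 133 CPM to 95.98, 85.3, 47.9, 59.8 and 29.2 CPM (log2 fold change -1.41 ± 0.26 SE, adjusted p = 1.81e-04), and Myod1 fell with overlap (log2 fold change -0.67 ± 0.22 SE, adjusted p = 0.0242), a call lost without replicate 1 or 3 of 1-day and without replicate 2, 3 or 5 of 1-week.

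The summed level of muscle genes was uneven between the libraries. Of 13 fast muscle genes 0 were called by edgeR, with 0 at an unadjusted p under 0.05, 0 by DESeq2 and a summed level of 22508 to 57089 CPM at 1-day and 19397 to 42108 CPM at 1-week, and Acta1 and Myh4 had log2 fold changes of -0.49 ± 0.25 SE and -0.19 ± 0.24 SE. Without replicate 5 of 1-day these were -0.20 and 0.08, and without replicate 4 of 1-week Acta1 was called (-0.67). Of 9 slow muscle genes 3 fell, with a median of -0.48, but without replicate 5 of 1-day 0 fell and the median was 0.23. Myh7, the slow myosin, held 15.9, 74.4, 38.6, 35.6 and 379.5 CPM at 1-day and 12.8, 26.1, 14.5, 67.4 and 28.7 CPM at 1-week (log2 fold change -1.84 ± 0.68 SE, adjusted p = 0.0427), and Myl3, its light chain, held 7.897, 27.6, 21.1, 20.5 and 109 CPM and 4.85, 7.68, 2.19, 18.2 and 9.42 CPM (log2 fold change -2.11 ± 0.62 SE, adjusted p = 0.0119). Replicate 5 of 1-day was the highest for both, and without it neither was called, with log2 fold changes of -0.43 and -1.16. Myh7 also lost its call without replicate 1, 2, 3 or 5 of 1-week. The part of muscle content in the changes of Rrad, Asb5, Fbxl22, Trim63 and Fbxo32 was not tested, and the fast muscle sum overlapped between both times.

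The contralateral joints at the same times address which changes were also seen in the knee that was not loaded. Between 1-day and 1-week, 111 genes rose (0.647%) and 58 fell (0.338%) in contralateral STR/ort joints, with 5 and 4 libraries. These 169 calls became 112 without replicate 3 of 1-day and 110.0, 88 and 293 without replicates 1, 2 and 3 of 1-week. The change over time differed between injured and contralateral joints in 837 genes, 668 with a higher (3.89%) and 169 with a lower (0.985%) change in injured joints. These comparisons share libraries, so their values are given side by side. C1qtnf3 changed by 5.94 ± 0.44 SE in injured and 0.43 ± 0.40 SE in contralateral joints, a difference of 5.51 ± 0.57 SE (adjusted p = 1.51e-06). The differences were 2.59 ± 0.30 SE for Postn (adjusted p = 5.58e-06), 3.34 ± 0.21 SE for Fbn2 (adjusted p = 4.30e-10), 2.57 ± 0.41 SE for Tnmd (adjusted p = 2.59e-04) and 1.85 ± 0.33 SE for Col3a1 (adjusted p = 8.80e-04). The rise of these matrix genes was thus larger in the injured joint than in the contralateral joint. Over the FACIT and beaded-filament list 8 of 10 members had a larger change in injured joints, over the tendon list 6 of 8 and over the fibrillar collagens 4 of 9.

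Some genes that fell in the injured joint changed less or not at all past the test in the contralateral joint. The difference was -2.23 ± 0.59 SE for Ccl2 (adjusted p = 0.0227), -2.57 ± 0.70 SE for Ccl7 (adjusted p = 0.0268) and -2.01 ± 0.55 SE for Cxcl5 (adjusted p = 0.0272), and these 3 lost their call without replicate 1 of the 1-week contralateral joints, and Cxcl5 also without its replicate 3 or replicate 3 of the 1-day injured joints. That of Hal was -2.50 ± 0.25 SE (adjusted p = 7.96e-07) and that of Trim63 -1.66 ± 0.32 SE (adjusted p = 0.00216). For Cxcl1 and Il6 the difference between the joints did not pass the test, with -1.56 ± 0.81 SE and -1.52 ± 0.68 SE (adjusted p = 0.295 and 0.215). Contralateral joints held 0.372 to 1.01 CPM of Il6 at 1-day and 0.458 to 0.736 CPM at 1-week. Myh3 differed by 2.89 ± 0.46 SE (adjusted p = 2.19e-04) and Gdf5 by 2.80 ± 0.85 SE (adjusted p = 0.048), and the call of Gdf5 was lost under 15 of 27 alternatives, 13 of which left out a single library. Mcm5, with a difference of -0.52 ± 0.16 SE, was not called, but was called at -0.59 without replicate 5 of the 1-day or replicate 3 of the 1-week injured joints.

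**Figure D4:**
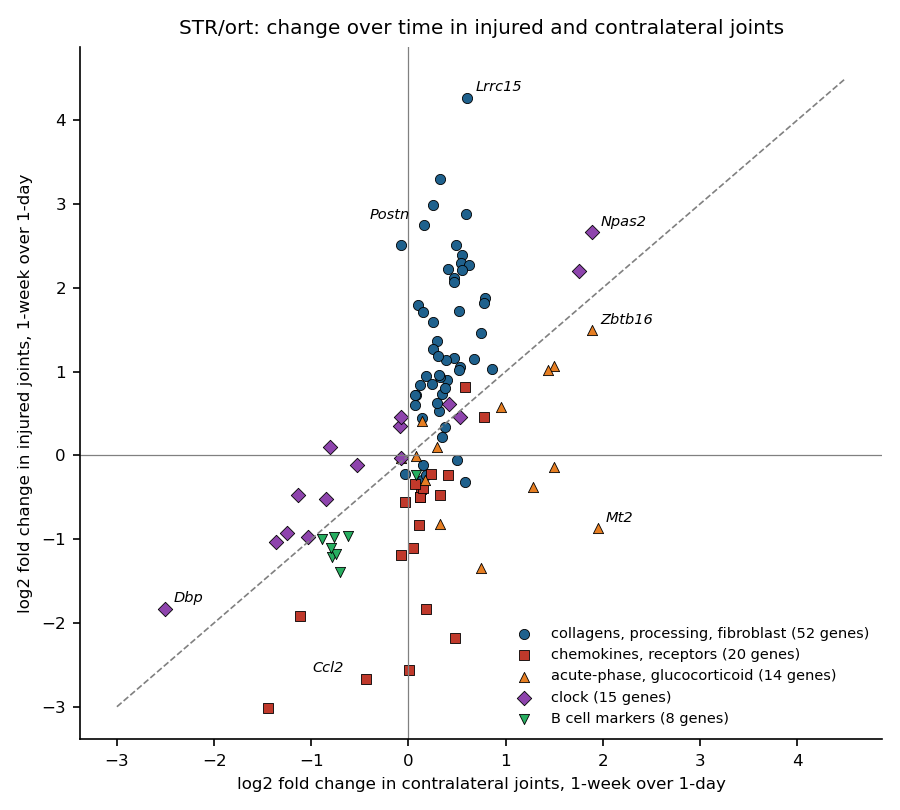
Log2 fold change from 1-day to 1-week in contralateral (x axis) and injured (y axis) STR/ort joints for members of 5 sets of genes, with the dashed line marking equal change. Most collagen and fibroblast genes lie above the line at a contralateral change between 0 and 1, clock genes and B cell markers lie nearer to the line, and Mt2 lies below it, at the right.

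A smaller set of genes moved in both joints. Clock genes, chosen after their values were seen, did so. Npas2, a core clock factor, held 3.42 to 5.05 CPM at 1-day and 18.1 to 32.1 CPM at 1-week in injured joints (2.66 ± 0.18 SE) and 3.61 to 5.75 CPM and 11.4 to 20.2 CPM in contralateral joints (1.89 ± 0.19 SE). Arntl changed by 2.20 ± 0.19 SE and 1.76 ± 0.20 SE, and the output gene Dbp fell by 1.83 and 2.51 on the log2 scale. Their differences between the joints did not pass the test (adjusted p = 0.0757, 0.411 and 0.451). That of Npas2 was called under 5 of 27 alternatives. Among them were fits without replicate 5 of the 1-day injured joints (0.86), without replicate 4 of the 1-week injured joints (0.88) and without replicate 2 of the 1-week contralateral joints (0.89). Another took the replicate number of the titles as a block (0.74). Of the 15 clock genes 3 rose and 4 fell in injured joints and 2 rose and 7 fell in contralateral joints. The hour at which joints were collected is not stated in the sources used here, and its part in these changes was not tested. Fkbp5 and Zbtb16 rose in both joints, with 1.43 ± 0.12 SE and 1.89 ± 0.20 SE in contralateral joints, and of the 14 acute-phase and glucocorticoid-induced genes 7 rose in contralateral joints. Of 8 B cell markers 2 fell in contralateral joints, and the change differed between the joints for 0 by edgeR or DESeq2, with 0 at an unadjusted p under 0.05. Rag1 changed by -1.84 ± 0.30 SE and -1.19 ± 0.32 SE (adjusted p in contralateral joints = 0.0504, and of the difference 0.441). Its change in contralateral joints was called under 5 of 17 alternatives, and without replicate 4 of 1-week it was -1.77 and the difference -0.07. With the replicate number of the titles as a block in the edgeR fit, the difference was called (-0.79, adjusted p = 0.0104).

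For other genes the change over time was higher in the contralateral joint. Mt2 held 92.6, 129, 69.5, 83.9 and 66.5 CPM at 1-day and 362, 434, 295 and 265 CPM at 1-week in contralateral joints (1.95 ± 0.27 SE, adjusted p = 3.04e-04) and 434, 710.4, 749, 594 and 716 CPM and 391, 577, 211, 329 and 235 CPM in injured joints, a difference of -2.81 ± 0.37 SE (adjusted p = 3.18e-05). Injured and contralateral joints were thus far apart at 1-day and overlapped at 1-week. Mmp3 rose in contralateral joints, from 15.3, 38.3, 14.3, 21.1 and 17.4 CPM to 94.7, 85.3, 25.9 and 57.8 CPM (1.64 ± 0.32 SE, adjusted p = 0.00727), with a difference of -1.50 ± 0.43 SE (adjusted p = 0.0341) that was lost under 11 of 27 alternatives, 10 of which left out a single library. Pdk4, a kinase that limits glucose oxidation in muscle, held 42.8 to 111 CPM and 191 to 262 CPM in contralateral joints at the 2 times and 172 to 283 CPM and 149 to 329.9 CPM in injured joints, and differed by -1.64 ± 0.33 SE (adjusted p = 0.00257).

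At 1-week, 983 genes (5.73%) were higher and 476 (2.77%) lower in injured than in contralateral STR/ort joints. Matrix genes were among the higher ones, with 3.02 ± 0.24 SE for Postn, 4.81 ± 0.45 SE for C1qtnf3 and 1.77 ± 0.25 SE for Col3a1 (adjusted p = 1.00e-08, 1.14e-07 and 1.88e-05). Some inflammatory genes that had fallen since 1-day were still above the contralateral joint. Il6 was higher by 1.84 ± 0.49 SE (adjusted p = 0.00898), Cxcl3 by 2.10 ± 0.66 SE (adjusted p = 0.0264) and Ccl2 by 1.31 ± 0.45 SE (adjusted p = 0.0426), and the calls of Cxcl3 and Ccl2 were lost under 5 and 7 of 16 alternatives, among them leaving out replicate 1 or 2 of the injured joints. Tnfaip6 and Ptgs2, which had risen, were higher by 3.24 ± 0.31 SE and 3.10 ± 0.31 SE (adjusted p = 1.14e-07 and 2.67e-07). Bglap and Myl3 were lower, with -1.30 ± 0.21 SE and -2.28 ± 0.65 SE (adjusted p = 7.71e-05 and 0.0147), and Myl3 lost its call without replicate 2 of the contralateral joints. Of 13 fast muscle genes 8 were lower in injured joints at 1-week, and their summed level was 19397 to 42108 CPM in injured and 38655 to 71697 CPM in contralateral joints. The part of muscle content in the differences between the joints was not tested.

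The change from 1-day to 1-week in STR/ort was set against that in injured joints of C57BL/6 and MRL/MpJ, with 5 libraries in each group. In C57BL/6 302 genes rose and 429 fell, and in MRL/MpJ 355 rose and 145 fell. The change differed between STR/ort and C57BL/6 in 3158 of 17270 genes, 1926 with a higher (11.2%) and 1232 with a lower (7.13%) change in STR/ort. Against MRL/MpJ it differed in 1300 genes, 883 higher (5.11%) and 417 lower (2.41%). The STR/ort libraries enter both tests. Angptl1 changed by 4.39 ± 0.29 SE in STR/ort and by 1.05 ± 0.17 SE in C57BL/6, and the difference, fitted over the 30 injured libraries of the 3 strains, was 3.35 ± 0.25 SE (adjusted p = 5.72e-11). Sfrp2 rose in STR/ort and changed by -1.08 ± 0.13 SE in C57BL/6, a difference of 3.10 ± 0.18 SE (adjusted p = 5.02e-13). Fcrls, a receptor-like gene of resident macrophages, held 1.59 to 5.596 CPM at 1-day and 8.500 to 13.6 CPM at 1-week in STR/ort and changed by -2.02 ± 0.20 SE in C57BL/6, a difference of 3.52 ± 0.32 SE (adjusted p = 1.74e-09). Gpnmb differed likewise by 3.09 ± 0.21 SE (adjusted p = 1.25e-11).

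The rise of many matrix genes was larger in STR/ort, for more of them against C57BL/6 than against MRL/MpJ. Postn changed by 0.37 ± 0.15 SE in C57BL/6 and 0.98 ± 0.16 SE in MRL/MpJ, with differences from STR/ort of 2.38 ± 0.22 SE (adjusted p = 2.15e-09) and 1.77 ± 0.22 SE (adjusted p = 8.57e-06). Col3a1 changed by 0.12 ± 0.15 SE in C57BL/6 and 1.75 ± 0.16 SE in MRL/MpJ, with differences of 2.29 ± 0.22 SE (adjusted p = 3.45e-09) and 0.66 ± 0.22 SE (adjusted p = 0.0362), of which that from MRL/MpJ was lost under 14 of 27 alternatives, 12 of which left out a single library. C1qtnf3 rose in all 3 strains, by 3.29 ± 0.29 SE in C57BL/6 and 4.12 ± 0.33 SE in MRL/MpJ, and most in STR/ort (differences of 2.67 ± 0.40 SE and 1.84 ± 0.44 SE, adjusted p = 5.45e-06 and 0.00437). Of 17 collagen processing genes 16 had a higher change in STR/ort than in C57BL/6 and 14 than in MRL/MpJ. In the same order these counts were 9 and 5 of 10 proteoglycan genes and 7 and 4 of 8 tendon genes. They were 8 and 5 of 13 metalloproteinase genes, with 1 lower against C57BL/6, and 7 and 5 of 12 ADAMTS genes. Barx2, a homeobox gene of muscle and connective tissue, Moxd1 and Igfn1, a gene of muscle Z-discs, had the largest higher changes against MRL/MpJ among called genes with a mean of at least 5 CPM, with differences of 2.50 ± 0.42 SE, 2.46 ± 0.33 SE and 2.42 ± 0.52 SE (adjusted p = 1.58e-04, 1.70e-05 and 0.0016).

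**Figure D5:**
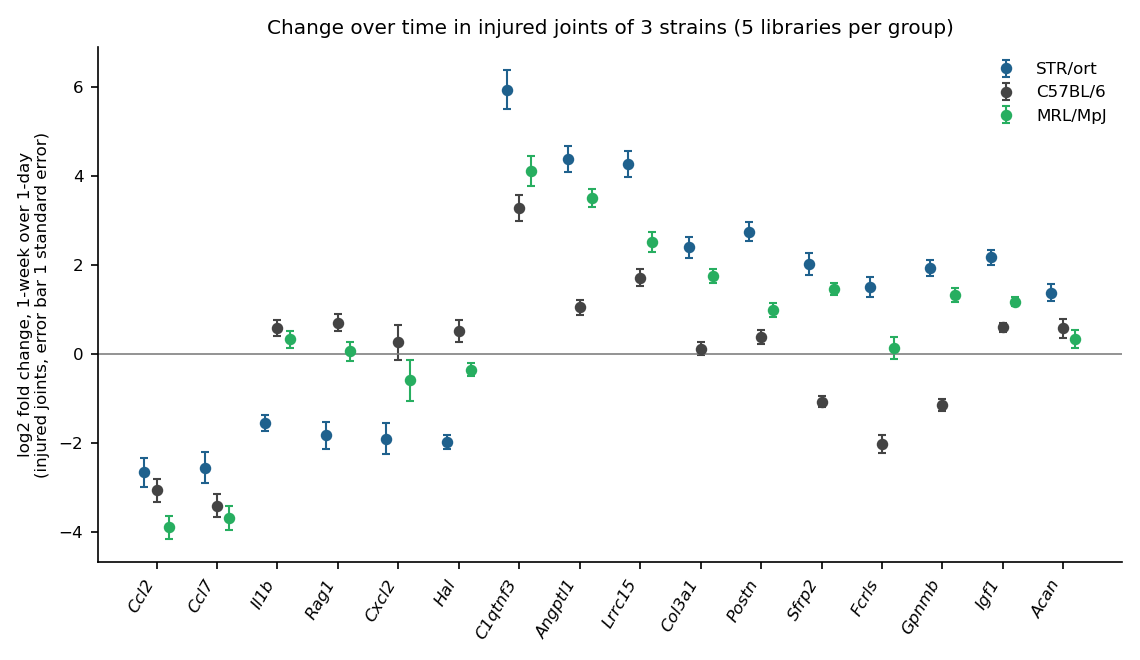
Log2 fold change from 1-day to 1-week (y axis) in injured joints of each of the 3 strains for 16 genes, with bars of 1 standard error and 5 libraries per group and time. Ccl2 and Ccl7 fell in all 3 strains, and Il1b, Rag1 and Hal fell in STR/ort while their values in C57BL/6 were above 0.

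Inflammatory genes differed between the strains for some members only. Ccl2 changed by -2.67 ± 0.33 SE in STR/ort, -3.08 ± 0.26 SE in C57BL/6 and -3.91 ± 0.26 SE in MRL/MpJ. Its change did not differ past the test from that of C57BL/6 (difference of 0.42 ± 0.33 SE, adjusted p = 0.365) and was smaller than that of MRL/MpJ (difference of 1.25 ± 0.35 SE, adjusted p = 0.0137). Ccl7 had differences of 0.86 ± 0.34 SE and 1.16 ± 0.36 SE (adjusted p = 0.0484 and 0.0279), lost under 15 and 6 of 27 alternatives. Il1b, by contrast, changed by 0.59 ± 0.18 SE in C57BL/6 and 0.33 ± 0.19 SE in MRL/MpJ, and the differences of -2.14 ± 0.25 SE and -1.88 ± 0.26 SE passed the test (adjusted p = 1.27e-07 and 1.92e-05). Rag1 differed by -2.53 ± 0.28 SE from C57BL/6 and by -1.88 ± 0.30 SE from MRL/MpJ (adjusted p = 5.63e-08 and 7.23e-05), and 7 of 8 B cell markers had a lower change in STR/ort than in C57BL/6.

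Marrow and growth genes also differed from C57BL/6. Of 11 granulocyte markers 10 had a lower change in STR/ort, among them Csf3r with -1.24 ± 0.14 SE (adjusted p = 8.42e-08), and of 22 cell cycle genes 13 had a lower and 1 a higher change, with Mki67 at -0.89 ± 0.21 SE (adjusted p = 0.00111). Against MRL/MpJ 3 of the 11 granulocyte markers had a lower change, and of the 22 cell cycle genes 0 were called by edgeR or DESeq2, with 13 lower at an unadjusted p under 0.05. Among genes with a mean of at least 5 CPM, the largest lower changes included muscle genes, with Pdk4 at -2.70 ± 0.42 SE, Myl3 at -2.61 ± 0.72 SE and Myh7 at -2.55 ± 0.95 SE (adjusted p = 9.85e-06, 0.00565 and 0.0396), and replicate 5 of the STR/ort joints at 1-day held the highest Myl3 and Myh7. Without that library Myl3 differed by -1.67 and Myh7 by -1.15, and the call of Myh7 was lost under 14 of 27 alternatives, 12 of which left out a single library. Within the same limit, the largest lower changes against MRL/MpJ were those of Fosb, Myl3 and Dbp, with -3.60 ± 0.92 SE, -2.03 ± 0.68 SE and -1.92 ± 0.32 SE (adjusted p = 0.00732, 0.0433 and 1.40e-04). For Fosb and Myl3 the same library was the highest at 1-day, and without it Fosb differed by -2.03 and Myl3 by -1.10, and the call of Myl3 was lost under 12 of 27 alternatives, 11 of which left out a single library.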

How the data were processed

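Gene counts were deposited by the authors as whole numbers, made by aligning reads to mm10 with TopHat2 (2.0.11) and assigning them to genes with featureCounts, per the labels. Groups came from the labels. From 17313 rows, 3 repeated rows, alike in name and counts, were dropped. The 23 STR/ort libraries (7584659 to 13316883 counts, 5 groups) were fitted together with edgeR (4.0.16, R 4.3.3), keeping 17164 genes with a count of at least 2 in 5 libraries, with TMM factors and quasi-likelihood tests. The 30 injured libraries of 3 strains were fitted likewise over 17270 genes for the comparison of strains. Genes were called at a Benjamini-Hochberg adjusted p below 0.05 and a fold change above 1.5. Standard errors (SE) are of log2 fold changes. Levels are CPM with TMM factors over 43 libraries. DESeq2 (1.42.0), other scalings, filters, sets of libraries and single libraries left out were tried, and the scripts were tested on simulated data. No 2 of the injured libraries held identical counts in 20 pairs.

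Named genes were the 10 largest called rises and falls without overlap and with a mean of at least 5 CPM, in each of 44 lists the largest rise and fall and the first 4 members, the same genes in the other tests, and the 3 largest called differences each way between strains with a mean of at least 5 CPM. Some genes that the rule names are not reported here. Members and lists were chosen with earlier results of these data known. Adamts15, Angptl4, Arntl, Bdnf, Bglap, Ccr2, Cxcr2, Eln, Fcgr1, Fkbp5, Fzd2, Hp, Il1rl1, Itgam, Kera, Klf4, Mfap4, Mmp13, Mmp14, Ms4a7, Myh3, Npas2, Osmr, Sox9, Thbs2 and Tnf fall outside the rule, and were chosen after their values were seen, as were 3 lists of clock, B cell progenitor and elastic fibre genes. Injured and contralateral joints with the same number deviated together at 1-week (correlations of 0.161 to 0.356 over 4 pairs) but not always at 1-day (-0.201 to 0.399 over 5 pairs), and the pairing of numbers comes from the titles alone. Sequences and positions are from RefSeq (GRCm38.p6).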

Additional observations from a re-analysis of the deposited data

Results flagged for a closer look

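In 20 of 332 groups of 5 injured libraries examined for the genes named in the text, 1 library stood far from the other 4 by Dixon's 95% criterion, where chance alone gives about 1 in 20 groups. Replicate 1 of 1-day was the highest for Asb5 (124 CPM). Replicate 1 of 1-day was the lowest for Col8a2 (5.73 CPM). Replicate 2 of 1-day was the highest for Ccl12 (4.88 CPM) and Fcgr1 (43.9 CPM). Replicate 2 of 1-day was the lowest for Gdf5 (0 CPM). Replicate 5 of 1-day was the highest for Aspn (188 CPM), Fos (269.6 CPM), Fosb (64.9 CPM), Nr4a2 (38.2 CPM), Egr1 (169 CPM), Myl3 (109 CPM), Myh7 (379.5 CPM), Myh3 (6.70 CPM) and Klf4 (157 CPM). Replicate 1 of 1-week was the highest for Ogn (414 CPM) and Gdf5 (10.7 CPM). Replicate 1 of 1-week was the lowest for Mpo (581 CPM). Replicate 3 of 1-week was the highest for Dbp (5.03 CPM). Replicate 4 of 1-week was the highest for Pdk4 (329.9 CPM) and Gdnf (1.76 CPM). Replicate 5 of 1-day gave 9 of the 20.

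The change from 1-day to 1-week differed past the test between injured and contralateral joints for 15 of 24 genes examined, with log2 differences of 5.51 for C1qtnf3, 2.59 for Postn, 1.85 for Col3a1, 3.34 for Fbn2, 2.57 for Tnmd, 2.80 for Gdf5, -2.23 for Ccl2, -2.57 for Ccl7, -2.50 for Hal, -2.81 for Mt2, -2.01 for Cxcl5, -1.50 for Mmp3, -1.66 for Trim63, 2.89 for Myh3 and -1.64 for Pdk4. It differed between STR/ort and C57BL/6 for 15 of 16 genes, with 3.35 for Angptl1, 3.10 for Sfrp2, 3.52 for Fcrls, -2.70 for Pdk4, -2.61 for Myl3, -2.55 for Myh7, 2.38 for Postn, 2.29 for Col3a1, 2.67 for C1qtnf3, 0.86 for Ccl7, -2.14 for Il1b, 3.09 for Gpnmb, -2.53 for Rag1, -0.89 for Mki67 and -1.24 for Csf3r. Against MRL/MpJ it differed for 13 of 14 genes, with 2.50 for Barx2, 2.46 for Moxd1, 2.42 for Igfn1, -3.60 for Fosb, -2.03 for Myl3, -1.92 for Dbp, 1.77 for Postn, 0.66 for Col3a1, 1.84 for C1qtnf3, 1.25 for Ccl2, 1.16 for Ccl7, -1.88 for Il1b and -1.88 for Rag1. These genes were named with their values known, so the counts do not describe genes at large.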

How the results depend on the processing

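The count of 2247 genes between both times in injured joints ranged over 1857 to 2448 under other settings (2246 with RLE size factors, 2346 with housekeeping scaling, 1857 with RUVg, 2219 by DESeq2, 2145 with only the 10 injured libraries) and over 1885 to 2462 with single libraries left out. Housekeeping scaling raised the share of higher calls from 68.8% to 79.8% in injured joints and from 79.8% to 91.5% in the joint by time test, and moved the median of all genes there from -0.02 to 0.09. With single libraries left out, calls ranged over 88 to 293 in contralateral joints, 575 to 1031 for joint by time, 1045 to 1697 for injured against contralateral joints at 1-week, 2754 to 3466 against C57BL/6, 916 to 1466 against MRL/MpJ, and 158 to 179 among members of the lists (173 with every library). The count of 169 in contralateral joints moved to 112 without replicate 3 of 1-day and to 110.0, 88 and 293 without replicates 1, 2 and 3 of 1-week. With both 1-day libraries of number 5 left out, a choice made after seeing the data, calls were 2448 in injured joints, 134 in contralateral joints and 1051 for joint by time. No called value of a named gene changed sign, while 9 uncalled values in injured joints did under at least 1 alternative, namely those of Ccl12, Il1rn, Timp3, Egr1, Prg4, Ibsp, Adgre1, Csf1r and Myh4. With the replicate number as a block (replicate block), calls were 2242, 157, 942, 1577, 2999 and 1078 in the 6 comparisons, with 998 higher and 579 lower for the 1-week joints. Myh7 in injured joints (-1.42), Gdf5 for joint by time (2.76), Myh7 against C57BL/6 (-2.15), and Myl3 (-1.78) and Col3a1 (0.63) against MRL/MpJ were lost with the block, Rag1 in contralateral joints (-1.29) and Npas2 (0.74) and Rag1 (-0.79) for joint by time were gained, and it changed no other call of a named gene. Injured joints of both times share only a number, with correlations of -0.218 to 0.00869. Low counts limit Cxcl2, Cxcl3, Brinp3, Gdf5, Hspa1a and T cell genes.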

Other observations

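Genes of elastic fibres and microfibrils, a list chosen after values were seen, were also higher at 1-week in injured STR/ort joints. Of 14 members 11 rose and 0 fell, with a median log2 fold change of 1.00. Eln, elastin, held 32.3, 45.7, 58.5, 63.5 and 67.8 CPM at 1-day and 190.2, 156, 93.6, 156 and 130.5 CPM at 1-week, with no overlap (log2 fold change 1.45 ± 0.21 SE, adjusted p = 1.01e-05). Mfap4, a microfibril protein, held 9.63 to 19.3 CPM and 87.8 to 102 CPM (log2 fold change 2.78 ± 0.22 SE, adjusted p = 1.74e-09). The change differed between injured and contralateral joints for 5 of the 14. Plat, tissue plasminogen activator, was the called member of 8 genes of plasminogen activation and coagulation (9.01% of all genes rose). It rose, with 17.9 to 27.8 CPM at 1-day and 51.01 to 82.9 CPM at 1-week (log2 fold change 1.66 ± 0.17 SE, adjusted p = 5.53e-08). Among 10 Schwann cell and nerve injury genes 2 rose (against 9.01% of all genes). These were the growth factors Gdnf and Bdnf, both from levels near or under 1 CPM (log2 fold changes of 1.31 ± 0.44 SE and 1.11 ± 0.34 SE, adjusted p = 0.0283 and 0.0158). Gdnf lost its call without replicate 1 or 3 of 1-day or replicate 4 of 1-week, and Bdnf without replicate 4 of 1-day or replicate 2 of 1-week. B cell progenitor genes, a list likewise chosen after values were seen, fell in 9 of 10 members in injured joints and in 2 of 10 in contralateral joints, and the change differed between the joints for 0 of 10 by edgeR or DESeq2, with 1 higher and 2 lower at an unadjusted p under 0.05.

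Of 12 interferon-stimulated genes 0 were called by edgeR, with 2 at an unadjusted p under 0.05 and 0 by DESeq2, and the median was 0.17. The summed level of this list ran over 186 to 639 CPM at 1-day and 244 to 343 CPM at 1-week. Of 18 complex I genes, 25 housekeeping genes and 5 genes that differ between the sexes 0 were called by edgeR or DESeq2, with 7, 2 and 0 at an unadjusted p under 0.05. Of 7 mast cell markers 1 fell, of 6 erythroid markers 1 fell, and of 4 keratinocyte genes tested 2 fell, against 4.08% of all genes. The mast cell and erythroid calls were each lost with at least 1 single library left out. The keratinocyte genes summed to 13.2 to 18.3 CPM at 1-day and 10.8 to 14.4 CPM at 1-week. For keratinocytes 4 further list members, which are defining markers, were not tested.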
